A study of Mus musculus with 8 samples.

Results

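Transcription factors that mark Müller glia, or hold them in their glial state, were followed in RNA from the ribosomes of Müller cells of mouse retina, namely Sox9, Sox2, Sox8, Lhx2, Rax, Nr2e1, Hes1, Hes5, Nfia and Nfix. They were chosen by symbol and not by their values, and all 10 were among the 12339 genes of the deposited table. Wild-type (WT) libraries were compared with libraries in which Nrf2 had been deleted in Müller cells alone (cKO). None of the 10 differed between the genotypes past the threshold of the test, and the estimated changes ran from -6.03% (Nfia) to 8.70% (Sox9).

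Müller cells are the main glia of the retina and arise from the same progenitors as its neurons, late in development. Notch signalling cuts its receptor at the membrane, and the freed piece joins the DNA-binding protein Rbpj to switch on Hes genes, whose products repress neuron-forming factors. The Sox, eye field and nuclear factor I genes act beside this route to set and keep the glial state, and many of them are also expressed in retinal progenitors.

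Each library came from retina on postnatal day 14 of oxygen-induced retinopathy (OIR), a model in which pups spend days in high oxygen, lose retinal vessels and then meet relative hypoxia in room air. RiboTag adds a tag to a ribosomal protein in cells with Cre activity, and ribosomes with their RNA are then pulled down by the tag. There were 4 WT and 4 cKO libraries, numbered 1, 3, 4 and 5 in each genotype. Strain, sex, litter, the driver of Cre and the deleted exon are not in the labels, nor is it said if a library was 1 animal or a pool, so p-values measure the spread between libraries, which may be technical. Nrf2 is a transcription factor that switches on antioxidant genes through DNA sites called antioxidant response elements.

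Windows of 250 bases before a start, from RefSeq promoters (GRCm38.p6), were searched for 7 of the 10 genes, 11 windows in all. Lhx2 and Nfix had more than 1 window each, so counts of windows are not counts of genes. Sox9, Rax and Hes1 had no window in the set searched, which does not show that RefSeq lacks an entry for them. Searched on both strands, the letters bound by Rbpj, GTGGGAA, occurred in 1 of the 11 windows, that of Hes5, which had them 2 times. Of 32851 windows of the same length, 5.42% held them once or more and 0.161% held 2 or more. The core of the antioxidant response element, TGACNNNGC, occurred in 2 of the 11 windows, those of Lhx2 and Sox8, and in 10.2% of all windows. In Lhx2 it overlaps a GC box, GGGCGG, by its last bases. The GC box was in 4 of the 11 windows and 32.7% of all windows, the CCAAT box, CCAAT, in 6 and 33.8%, and the N-box that Hes proteins bind, CACNAG, in 2 and 36.7%. The windows of Hes5, Lhx2 and Sox8 are shown because they carry the letters of the Notch route or of the deleted factor, which are in capitals. A match is a description of the letters and not a measured binding site. Hes5 lies at chr4:154960673-154960922 on the plus strand, with its matches starting 226 and 83 bases before the start, Lhx2 at chr2:38339031-38339280 on the plus strand, with its match 81 bases before, and Sox8 at chr17:25570687-25570936 on the minus strand, with its match 196 bases before.
Hes5: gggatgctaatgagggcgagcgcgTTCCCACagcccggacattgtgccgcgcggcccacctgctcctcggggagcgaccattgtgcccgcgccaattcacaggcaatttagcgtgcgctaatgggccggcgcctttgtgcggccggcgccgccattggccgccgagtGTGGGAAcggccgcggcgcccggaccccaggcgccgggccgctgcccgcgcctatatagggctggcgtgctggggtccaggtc
Lhx2: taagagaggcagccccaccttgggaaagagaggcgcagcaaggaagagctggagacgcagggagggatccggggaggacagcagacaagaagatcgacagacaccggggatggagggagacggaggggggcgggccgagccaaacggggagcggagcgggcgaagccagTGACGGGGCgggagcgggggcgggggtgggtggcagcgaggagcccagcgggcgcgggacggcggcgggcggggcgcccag
Sox8: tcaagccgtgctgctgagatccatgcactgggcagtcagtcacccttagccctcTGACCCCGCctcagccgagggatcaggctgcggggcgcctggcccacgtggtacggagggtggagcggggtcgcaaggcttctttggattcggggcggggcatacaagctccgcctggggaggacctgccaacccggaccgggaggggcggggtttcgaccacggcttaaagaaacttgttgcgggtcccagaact

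Values are FPKM, fragments scaled to transcript length and to the fragments of the library, so levels of different genes can be set side by side. The column totals ran from 410581 to 448130 FPKM over the 8 libraries, and the number of fragments behind them is not given. Nfe2l2, the gene of Nrf2, was at 17.5, 18.8, 23.1 and 17.5 FPKM in WT 1, 3, 4 and 5, and at 12.7, 16.5, 14.8 and 10.4 FPKM in the cKO libraries of these numbers. Every cKO value lay below every WT value (-29.1% from the log2 difference; two-sided exact permutation test, p = 0.0286, which no result over 70 assignments could go below). The limma adjusted p was 0.453, and 0.0219 with the replicate number as a block. With the block it missed the threshold without pair 1, 4 or 5 (0.0634 to 0.0846), with the Müller markers as a covariate (0.134) and with Xist as a covariate (-0.24 log2 in place of -0.50, adjusted p = 0.309). Xist, the RNA of the inactive X chromosome in females, was at 0.0863 FPKM in cKO 4 and 0.00505 FPKM in cKO 5, and at 25.0 to 72.1 FPKM in the other 6 libraries. Müller markers were abundant, with 12 of 12 measured, but so were those of rods (12 of 12), with summed FPKM of 3732 to 5840 in WT and 3982 to 6050 in cKO. The libraries thus held rod RNA besides that of Müller cells, and in such bulk samples fewer cells of a type and less RNA per cell cannot be told apart.

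The 10 factors were well expressed and spanned a 6.23-fold range of mean FPKM in WT. Rax stood highest, at 157 ± 17.7 FPKM in WT (SD, n = 4), above 96.9% of the genes of the table. It was followed by Lhx2 (107 ± 15.8), Nfix (92.8 ± 6.11), Sox2 (78.7 ± 13.02), Sox9 (64.0 ± 14.3), Sox8 (59.2 ± 9.79), Hes1 (56.5 ± 8.61), Nfia (53.1 ± 2.05) and Nr2e1 (33.7 ± 4.25). Hes5 was lowest, at 25.2 ± 2.75 FPKM, still above 66.6% of the genes. The order of the means was the same in cKO. Rax lay above Lhx2 in all 8 libraries without overlap of their values, and likewise Nfia above Nr2e1 and Nr2e1 above Hes5. The neighbours from Lhx2 down to Nfia overlapped in their WT ranges. Within that stretch, Nfix exceeded Sox2 and Sox2 exceeded Sox9 in each of the 8 libraries.

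**Figure D1:**
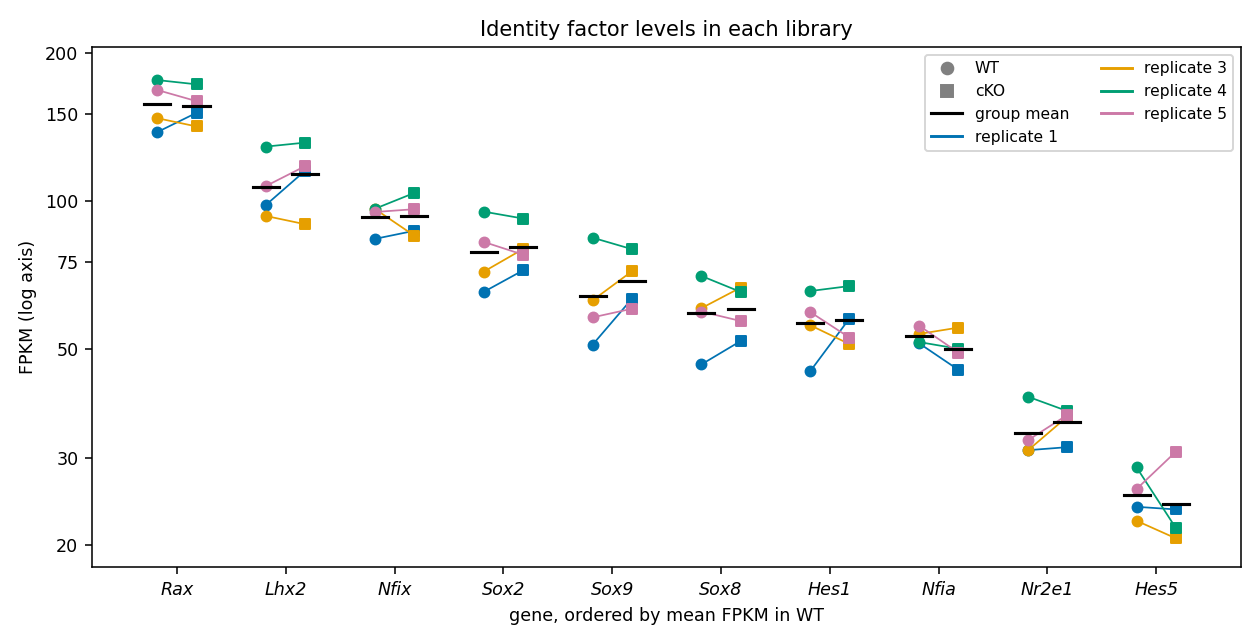
FPKM (log axis) of the 10 identity factors in each library, with circles for WT, squares for cKO, a line joining libraries of equal replicate number, and black bars for group means. The groups overlap for every gene, and replicate 4 is the highest WT library for all but Nfia.

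The Sox genes encode HMG-box factors, of which Sox2 belongs to the SoxB1 group of neural progenitors and Sox8 and Sox9 to the SoxE group of glia. Sox9 (ENSMUSG00000000567; GRCm38 chromosome 11, 112782224 to 112787760, plus strand), needed for Müller cell formation, was at 51.0, 62.8, 84.1 and 58.0 FPKM in WT 1, 3, 4 and 5. The cKO libraries had 63.2, 71.9, 79.8 and 60.3 FPKM. WT 1 was lowest and WT 4 highest of the 8, so that the cKO range fell inside that of WT. Its difference was the largest of the 10 in the positive direction, at 0.12 log2 (SE 0.15), with a 95% interval from -14.3% to 37.9% (limma adjusted p = 0.764). Without WT 4 it was 0.26, and without WT 1 it was 0.02, with the adjusted p at 0.348 and 0.977.

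Sox2 (ENSMUSG00000074637; chromosome 3, 34650405 to 34652461, plus strand) keeps progenitors and Müller cells from differentiating further. It had 65.3, 71.8, 95.1 and 82.5 FPKM in WT and 72.2, 79.8, 92.0 and 77.7 FPKM in cKO, again with all cKO values inside the WT range. The difference was 0.04 log2 (SE 0.13, adjusted p = 0.912). Sox2 lies wholly within Sox2ot, a long noncoding RNA on the same strand, which was at 8.24 to 11.0 FPKM in WT and 9.599 to 11.7 FPKM in cKO, so fragments of the 2 genes could be shared. Coordinates here are those of GENCODE, and the span in the deposited table differs for Sox2 (34104270 to 34682619), Rax, Hes5 and Nfia. Sox8 (ENSMUSG00000024176; chromosome 17, 25565892 to 25570686, minus strand), whose promoter is shown above, was at 46.5, 60.5, 70.3 and 59.5 FPKM in WT. In cKO it was at 51.9, 66.6, 65.3 and 57.0 FPKM, a difference of 0.03 log2 (SE 0.14, adjusted p = 0.938). For Sox9, Sox2 and Sox8 alike, the cKO library was higher than the WT library of its number in replicates 1 and 3 and lower in replicate 4.

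Rax, Lhx2 and Nr2e1 belong to the eye field and retinal progenitor programme. Rax, a homeobox gene on chromosome 18 (ENSMUSG00000024518), had 138, 147, 176 and 168 FPKM in WT and 151, 142, 172 and 159 FPKM in cKO. No library stood apart, and the difference was -0.01 log2 (SE 0.11), with a 95% interval from -15.9% to 17.8% (adjusted p = 0.982). Lhx2 (ENSMUSG00000000247; chromosome 2, 38339281 to 38369733, plus strand), a LIM-homeobox factor that restrains gliosis and acts upstream of Notch genes in retinal gliogenesis, was at 98.2, 93.1, 129 and 107 FPKM in WT. Its cKO values were 115, 89.6, 131 and 118 FPKM. Replicate 3 was lowest and replicate 4 highest in both genotypes, and the difference was 0.08 log2 (SE 0.14, adjusted p = 0.827). Nr2e1 (ENSMUSG00000019803; chromosome 10, 42561963 to 42583632, minus strand), an orphan nuclear receptor known as Tlx that represses transcription in neural progenitors, had 31.1, 31.1, 40.0 and 32.6 FPKM in WT against 31.6, 36.4, 37.4 and 36.7 FPKM in cKO. WT 4 stood above the other WT libraries, and the difference was 0.08 log2 (SE 0.11, adjusted p = 0.776). Without WT 4 it was 0.16 log2 (adjusted p = 0.409).

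Hes1 and Hes5 are the repressors that Notch signalling switches on. Hes1 (ENSMUSG00000022528; chromosome 16, 30064384 to 30067796, plus strand) was at 45.0, 55.9, 65.6 and 59.4 FPKM in WT and at 57.6, 51.2, 67.1 and 52.7 FPKM in cKO. WT 1 was the lowest library, and the pairs went in both directions, from 0.35 log2 in replicate 1 to -0.17 in replicate 5. The difference over all libraries was 0.02 log2 (SE 0.13, adjusted p = 0.955). Hes5 (ENSMUSG00000048001; chromosome 4, 154960923 to 154962371, plus strand), the gene with 2 Rbpj matches in the window shown, had 23.9, 22.4, 28.7 and 25.97 FPKM in WT. In cKO it was at 23.6, 20.6, 21.6 and 30.9 FPKM, with the highest and the lowest value of all 8 libraries both in this group. It differed by -0.07 log2 (SE 0.14), with a 95% interval from -22.9% to 17.4% (adjusted p = 0.848). Its pair differences ran from -0.40 in replicate 4 to 0.25 in replicate 5, the widest span of the 10.

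Nfia and Nfix are nuclear factor I genes, which act late in retinal development, when bipolar and Müller cells form. Nfia (ENSMUSG00000028565; chromosome 4, 97772734 to 98118874, plus strand) was at 51.4, 53.6, 51.6 and 55.8 FPKM in WT and 45.4, 55.2, 50.1 and 49.2 FPKM in cKO. It varied least between WT libraries, and cKO 1, 4 and 5 lay below all WT values while cKO 3 lay inside the WT range. Its difference, -0.09 log2 (SE 0.09), was the most negative of the 10, with a 95% interval from -17.8% to 7.42% (adjusted p = 0.685). With a correction for transcript length and GC content together with the block it was 0.07 (adjusted p = 0.520). Nfix (ENSMUSG00000001911; chromosome 8, 84699876 to 84800344, minus strand) had 83.7, 96.2, 96.4 and 94.9 FPKM in WT and 86.9, 85.0, 104 and 96.1 FPKM in cKO. WT 1 was below the other 3 WT libraries, and the group means, 92.8 ± 6.11 and 92.9 ± 8.68 FPKM (SD, n = 4 each), differed by less than their spread (adjusted p = 0.9998).

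Over the set, 0 of 10 factors passed in limma without the block, where 0% of the 12339 genes did, and 0 of 10 passed with the block, where 10.6% of genes did. At an unadjusted p under 0.05 there were 0 of 10 factors in either fit, against 10.6% of all genes without the block and 28.4% with it. Values of the genotypes did not overlap in 0 of 10 factors and in 4.34% of all genes, of which 2.06% of the table lay higher and 2.28% lower in cKO. The direction was the same in all 4 pairs for 0 of 10 factors and for 36.2% of genes (16.7% higher, 19.5% lower). Of the 10, 7 had a positive and 3 a negative difference, with a median of 0.03 log2 beside 0.00 over all genes. The median size of the difference, signs left out, was 0.06 log2 for the factors and 0.14 for all genes. These counts describe the list and were not tested against other lists.

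A difference that misses the threshold does not show equal levels, and the intervals give what remains possible. Without the block they reached from -22.9% (Hes5) to 37.9% (Sox9) over the 10 factors. With the block, which compares libraries of equal number, they reached from -19.3% (Hes5) to 22.6% (Sox9). The median standard deviation between libraries of a group was 0.20 log2 for the factors and 0.20 for all genes, and 0.09 and 0.12 in the fit with the block. The adjusted p of a factor was 0.153 or more in each of the 26 other settings run (that of Sox9, with Xist as a covariate and the block).

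**Figure D2:**
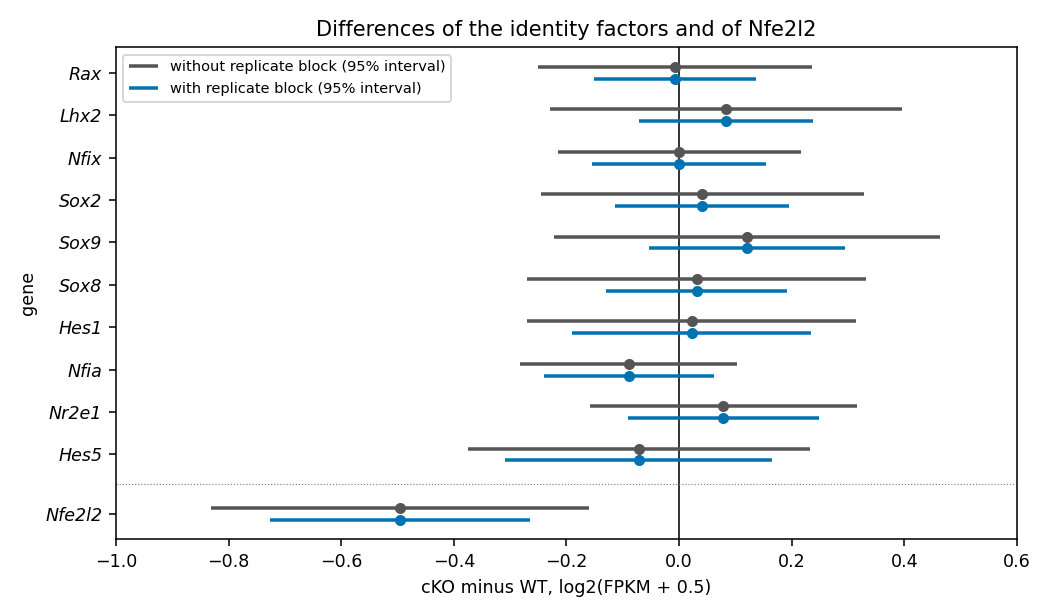
Difference between cKO and WT on the log2(FPKM + 0.5) scale for the 10 factors and, below the dotted line, for Nfe2l2. Points are estimates and bars 95% intervals, in grey without and in blue with the replicate block, and all bars of the 10 factors cross 0 while those of Nfe2l2 do not.

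Libraries of equal replicate number were often high or low together, although Hes5 was high in WT 4 and low in cKO 4. WT 4 was the highest WT library for 9 of the 10 factors and cKO 4 the highest cKO library for 7. WT 1 was the lowest of all 8 for 6 of them. The summed FPKM of the 12 Müller markers, which include Glul and Rlbp1 and none of the factors, was 8794, 10386, 14894 and 10909 in WT 1, 3, 4 and 5 and 9395, 8988, 12974 and 9394 in cKO. It was thus also highest in WT 4 and cKO 4 and lowest in WT 1. The summed FPKM of the 10 factors, 634 to 837 in WT and 698 to 821 in cKO, was highest in the same 2 libraries. Expressed per Müller marker sum, the factors made up 7.21%, 6.69%, 5.62% and 6.82% in WT and 7.43%, 7.76%, 6.33% and 7.85% in cKO, so that this share was lowest in replicate 4 of each genotype and higher in cKO than in WT within each pair. The marker sum itself was lower in cKO in pairs 3, 4 and 5 and higher in pair 1. The factor sum was 634, 695, 837 and 744 FPKM in WT 1, 3, 4 and 5 and 698, 698, 821 and 738 FPKM in cKO. In pairs 4 and 5 both sums were thus lower in cKO, the marker sum by the larger proportion. Why the marker sum was lower was not tested. With the logarithm of the marker sum as a covariate, 0 of 10 factors passed, with or without the block, and the median difference was 0.11 and 0.09 log2.

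Rod markers went the other way in WT 4, where their sum was lowest. The bipolar markers (12 of 12) summed to 1922 to 2427 FPKM in WT and 2349 to 3059 FPKM in cKO, and the amacrine markers (9 of 10) to 337 to 383 FPKM in WT and 268 to 319 FPKM in cKO. The part of these other cells in the values of the factors was not tested, although neurons and progenitors also use several of them. Astrocytes, another glial source of Sox2, Sox9 and Nr2e1, had 5 of 8 markers measured, with a sum of 116 to 266 FPKM in WT and 242 to 396 FPKM in cKO. The 5 had a median of 0.27 log2. With the block 2 of 5 were higher, and 3 of 5 were higher in all 4 pairs, where 2.99% and 16.7% of all genes were. Gfap, which reactive Müller cells share, gave 55.3 to 166 FPKM of the sum in WT and 155 to 304 FPKM in cKO. The astrocyte factor Pax2 was not among the genes of the table, which holds none with a mean below 2 FPKM. The part of astrocytes in the values of the factors was not tested. Of the microglia markers 1 of 8 was measured, of the endothelial 3 of 8, of the pericyte 2 of 8, of the pigment epithelium 1 of 8, of the horizontal 2 of 6, of the ganglion cell 6 of 8 and of the cone 10 of 10. Of the cone markers 4 fell and 2 rose with the block, where 7.59% of all genes fell and 2.99% rose. Their sum was 499 to 587 FPKM in WT and 595 to 626 FPKM in cKO.

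**Figure D3:**
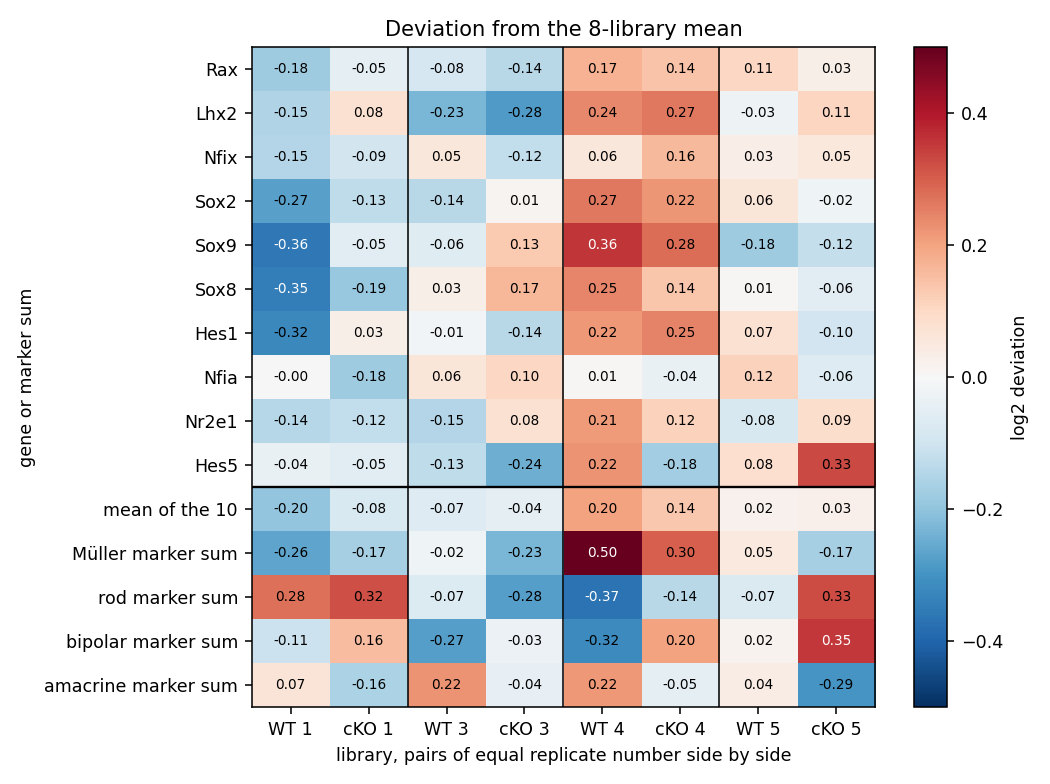
Deviation of each library from the 8-library mean (log2, red above and blue below) for the 10 factors, their mean and the summed markers of 4 cell types, with libraries of equal replicate number side by side. WT 4 and cKO 4 are above the mean for most factors and for the Müller marker sum, which reached 0.50 and 0.30 there, and WT 1 is below.

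Among pairs of the 10 factors, Hes1 and Rax varied most alike over the 8 libraries (Pearson r = 0.88), followed by Sox8 with Sox9 (0.87) and Sox2 with Rax (0.87). Nr2e1 was most like Sox2 (0.85), Lhx2 most like Rax (0.84) and Nfix most like Rax (0.81). Nfia and Hes5 stood outside this group, with highest values of 0.41 (to Sox8) and 0.49 (to Lhx2). Of all other named genes, Pon2 (0.98), Hsd17b4 (0.98) and Mgarp (0.97) were most like the mean of the standardised factors. Mgarp, a mitochondrial protein abundant in retina, averaged 1832 ± 448 FPKM over the WT and 1858 ± 315 FPKM over the cKO libraries (SD, n = 4 for both). These values of r are descriptions of 8 libraries that share depth, pairs and the swing of the Müller markers, and the genes were picked for the highest r.

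The other genes of these pathways were taken from 9 lists, of which 116 of 140 genes were measured. None passed in limma without the block, with 5 at an unadjusted p under 0.05, as were 10.6% of all genes. With it 3 rose and 5 fell, where 2.99% of all genes rose and 7.59% fell. The Notch ligands and receptors were lower in cKO than in WT within all 4 pairs for 6 of 6 measured genes. Over all genes, 19.5% were lower in all 4 pairs. The median of the 6 was -0.33 log2. The block left 3 of them past the threshold, all falls, and 3 not. Jag1, a ligand, had 13.8, 14.7, 9.38 and 6.45 FPKM in WT and 6.11, 10.1, 5.15 and 5.22 FPKM in cKO, so that the groups overlapped while each pair was lower (-0.68 log2, SE 0.28, adjusted p = 0.469, and 0.0225 with the block). Jag2, another ligand of the same kind, fell from 14.7 ± 6.36 to 9.27 ± 3.46 FPKM (-0.61 log2, adjusted p = 0.489, and 0.0218 with the block). Dner, a Notch-like transmembrane protein of neurons, fell from 20.3 ± 1.21 to 16.2 ± 1.36 FPKM without overlap (-0.32 log2, adjusted p = 0.453, and 0.0363 with the block).

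The receptors Notch1 (13.7 ± 1.96 and 11.8 ± 2.23 FPKM, adjusted p = 0.163 with the block) and Notch2 (11.95 ± 3.08 and 9.46 ± 1.32, adjusted p = 0.0746) and the ligand Dll1 (4.41 ± 0.504 and 3.43 ± 0.922, adjusted p = 0.142) did not pass. The 3 calls of this list did not all last. Leaving out pair 1 or pair 3 left 0 of 6, leaving out pair 4 left Jag2 (adjusted p = 0.0176) and leaving out pair 5 left Jag1 (adjusted p = 0.0225). With Xist as a covariate and the block 0 of 6 passed, and with the Müller markers and the block Jag1 did (adjusted p = 0.0379). All 3 passed with the length and GC correction and the block, where Notch1 and Notch2 were at -0.02 and -0.08 log2 instead of -0.21 and -0.30. Amacrine markers were also lower in cKO, without overlap of their sums (above). The 6 measured ganglion cell markers summed to 84.6, 70.7, 85.8 and 64.2 FPKM in WT 1, 3, 4 and 5. In cKO they summed to 59.2, 51.7, 66.1 and 46.4 FPKM, lower within each pair. Of the 6, 3 were lower with the block, where 7.59% of all genes were. Within WT, Jag1 was highest in WT 3, as was the amacrine sum (383 FPKM, beside 381 FPKM in WT 4). The ganglion sum was highest in WT 4. The part of either cell type in the fall of the Notch genes was not tested.

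The 21 genes of Notch processing and its nuclear complex had a median of 0.01 log2. With the block in limma 0 passed, and 4 of 21 had an unadjusted p under 0.05, where 28.4% of all genes did. Rbpj itself was at 8.76 ± 0.688 and 8.96 ± 0.295 FPKM (adjusted p = 0.827 with the block). Numbl, an inhibitor of Notch and the member with the smallest p without the block, was at 18.1 ± 1.61 and 20.4 ± 1.10 FPKM (0.17 log2, adjusted p = 0.504 without and 0.158 with the block, and 0.0362 with the length and GC correction added). With the block the smallest p was that of Snw1, at 63.6 ± 4.92 and 72.1 ± 7.59 FPKM (0.18 log2, adjusted p = 0.0906, and 0.0687 with the correction added). Of 14 other Hes, Hey and Id factors and their corepressors, 1 rose with the block and 13 did not pass (median 0.01). It was Hes6, which counteracts Hes1 in differentiating neurons, with means of 38.8 ± 6.24 FPKM for WT and 47.2 ± 6.77 FPKM for cKO (0.28 log2, adjusted p = 0.482, and 0.0347 with the block). Without any 1 of the 4 pairs it had an adjusted p of 0.0675 to 0.118, and with the length and GC correction 0.0617. The bipolar marker sum was higher in cKO in each pair too (above), and its part in the rise of Hes6 was not tested. The Notch targets Hey1 (19.1 ± 2.41 and 19.2 ± 1.45 FPKM) and Hey2 (18.9 ± 2.96 and 19.7 ± 3.504) differed by 0.01 and 0.05 log2.

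Relatives and partners of the factors gave few calls. Of 6 other Sox genes 0 passed (median -0.06), with Sox5 at 8.20 ± 0.804 and 7.22 ± 1.31 FPKM (limma adjusted p of 0.617 without and 0.283 with pairs as a block, and 0 of 6 at an unadjusted p under 0.05 in either fit). Both other nuclear factor I genes, Nfib (44.2 ± 4.30 and 42.9 ± 4.20 FPKM) and Nfic (42.9 ± 1.56 and 43.0 ± 1.83), did not pass, at differences of -0.04 and 0.00 log2. Of 15 partners of Lhx2 and Nr2e1 0 passed (median 0.07). With the block 4 of the 15 had an unadjusted p under 0.05, where 28.4% of all genes did. Hdac1, a histone deacetylase that Nr2e1 recruits, was at 35.03 ± 3.30 and 30.1 ± 1.42 FPKM (-0.21 log2, adjusted p = 0.469 without and 0.0801 with the block, and 0.0385 with the length and GC correction added). The 20 measured genes of the list of other progenitor and eye field factors had a median of 0.10 log2.

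Of 13 proneural and photoreceptor determination factors 0 passed in limma (median 0.13). With the block 2 of the 13 had an unadjusted p under 0.05, against 28.4% of all genes. The smallest p with the block was that of Neurod4, a factor of differentiating retinal neurons, at 269.8 ± 40.9 and 317 ± 43.0 FPKM (0.23 log2, adjusted p = 0.523 without and 0.0513 with the block, and 0.0375 with the length and GC correction added). Neurog2, which drives neuron formation and is repressed by Hes1, was at 22.5 ± 7.32 and 28.1 ± 3.30 FPKM (0.35 log2, adjusted p = 0.499, and 0.228 with the block). Of 19 genes of Müller cell function 1 rose, 2 fell and 16 did not pass with the block (median -0.10). Gfap, the filament gene of gliosis, rose from 91.7 ± 51.8 to 218 ± 68.0 FPKM (1.35 log2, adjusted p = 0.435, and 0.00521 with the block). The water channel gene Aqp4 fell by 0.35 log2 (adjusted p = 0.0346 with the block) and Abca8a, a lipid transporter, by 0.36 (adjusted p = 0.0418 with the block). Both of these falls missed the threshold without pair 1, 3 or 4, while Gfap passed without any of the 4 (0.00172 to 0.0344). With the Müller markers as a covariate and the block, Gfap missed the threshold (1.39 log2, adjusted p = 0.0530). So did Aqp4 (-0.36 log2, adjusted p = 0.142) and Abca8a (-0.39 log2, adjusted p = 0.150), which are themselves among the markers summed for that covariate. Abca8a also missed it with the length and GC correction and the block (0.0594). Whether the factors and Gfap differed in their response was not tested.

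**Figure D4:**
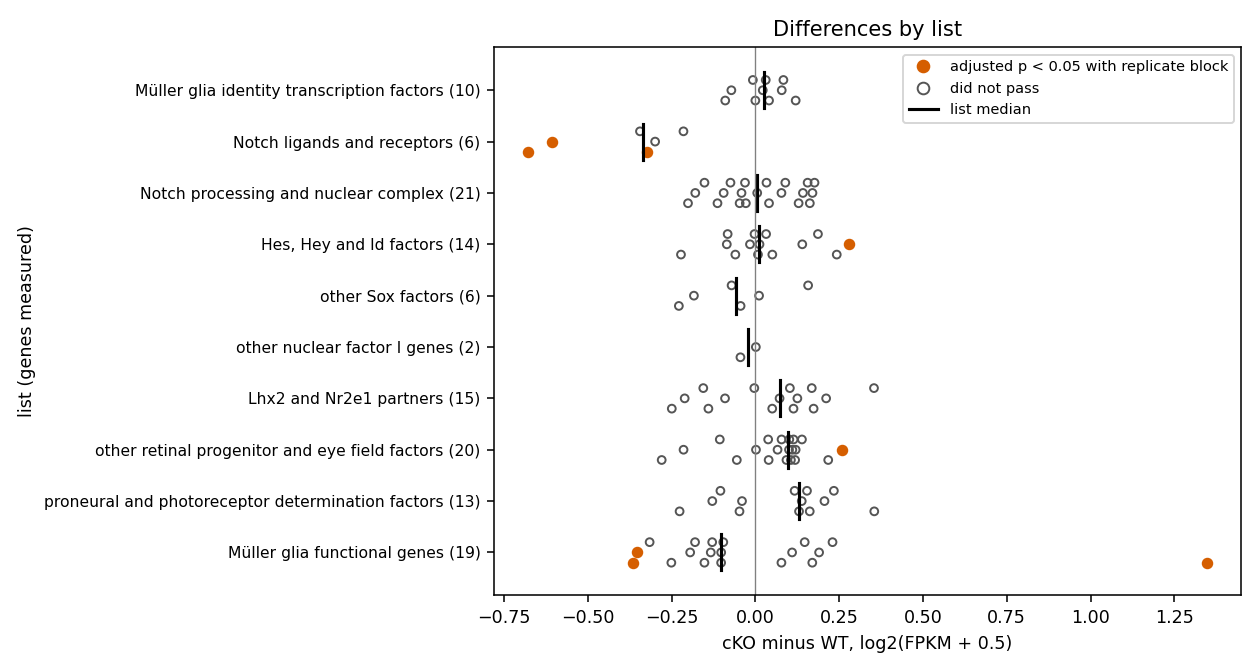
Difference between cKO and WT on the log2(FPKM + 0.5) scale for each measured gene of the 10 identity factors and of the 9 pathway lists, with a black bar at each list's median and filled points for genes that passed with the replicate block. The 10 factors lie between -0.09 and 0.12, the Notch ligands and receptors are all below 0, and Gfap lies alone at 1.35.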

How the data were processed

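RNA from retina was sequenced in 8 libraries. Per the labels' protocols, RNA with poly(A) tails was selected and the library kit keeps strand. The authors deposited 1 table of FPKM per library, and its name gives the unit. STAR, edgeR and the builds GRCm38 and mm10 are named in the submitters' processing notes, with no version or role, and the counting tool, strand setting and gene filter are not given in the sources used here. Each gene had a mean FPKM above 2, so lower genes could not be examined. Where a gene overlaps another, fragments may be shared. Library depth is not given, so no counting intervals are printed.

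Libraries were compared as log2(FPKM + 0.5) with limma 3.58.1 in R 4.3.3 (lmFit, eBayes with a trend, two-sided, Benjamini-Hochberg over 12339 genes, threshold 0.05), so fold changes are on that scale. After removing group means, WT and cKO libraries of equal number correlated at 0.261 to 0.591 across genes and others at -0.479 to 0.211. The lowest of the former thus lay close above the highest of the latter, and the labels do not say what the replicate numbers mark. The fit without the block is therefore the main one, and the fit blocked on replicate number is quoted beside it. Of 12339 gene IDs, 12327 were found in GENCODE M21 (GRCm38), the source of coordinates. The scripts were tested on simulated data. The members, lists and tests were chosen with earlier results of these data known. Named genes were the 10 factors, Nfe2l2, the genes of each pathway list past the threshold or else its member with the smallest p, and the genes most alike, except that some results are not reported here. Notch1, Notch2, Dll1, Rbpj, Snw1, Hey1, Hey2, Nfic, Neurod4, Xist and the overlapping genes were named besides, after their values were seen. Settings tried were other pseudocounts, a minimum mean FPKM of 5, 3 other scalings, library weights, no trend, Xist as a covariate, the block and each library or pair left out. The length and GC correction (splines with 4 degrees of freedom) and the Müller marker covariate were added after the data were seen.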

Additional observations from a re-analysis of the deposited data

Results flagged for a closer look

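In the 22 groups of 4 libraries examined for the 10 factors and Nfe2l2, 2 libraries lay far from the rest of their group by Dixon's 95% criterion, which chance meets in about 1 of 20 groups. Nr2e1 in WT 4 was at 40.0 FPKM, against 31.1 to 32.6 FPKM in the other WT libraries. Nfix in WT 1 was at 83.7 FPKM, against 94.9 to 96.4 FPKM in the others. The Müller marker sum was highest in WT 4 and lowest in WT 1, and its part in these values was not tested.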

How the results depend on the processing

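None of the 10 factors passed in any of the 26 other settings, and the largest size of a difference was 0.29 log2. The median difference moved between -0.07 (Xist as a covariate) and 0.11. Genes past the threshold over the whole table numbered 0 without the block, with 1310 at an unadjusted p under 0.05. With the replicate block 1305 passed, 402, 606, 524 and 821 with the block and pair 1, 3, 4 or 5 left out, 922 with the block and the length and GC correction, 335 with the block and the Müller markers as a covariate, 73 with the block and Xist as a covariate, and 1 with library weights or with Xist alone. Without a block, leaving out 1 library left 0. Of 260 results of the factors in these other settings, 41 had the opposite sign to the main fit, and the cause was not tested. Nfix was at -0.0016 with median-of-ratios, -0.033 with TPM and -0.067 with quantile scaling, and Hes1 at -0.010 with TPM and -0.0022 with quantile scaling. Sox8 was at -0.0015 with TPM scaling, and Rax at 0.049 with library weights. With Xist as a covariate Sox2 was at -0.059, Lhx2 at -0.11, Hes1 at -0.072 and Nfix at -0.12, and with the block added Rax was at 0.042 and Nfix at -0.095. With length, GC and the block Sox2 was at -0.027, Hes1 at -0.074 and Nfia at 0.072. With the Müller markers Rax was at 0.052, and 0.073 with the block. Leaving out 1 library moved Sox2 between -0.043 and 0.14, Sox8 between -0.079 and 0.12, Rax between -0.068 and 0.049, Hes1 between -0.081 and 0.10 and Nfix between -0.054 and 0.041. With the block, Sox8 was at -0.011, Hes1 at -0.088 and Nfix at -0.018 without pair 1, and Sox8 at -0.0045 and Rax at 0.0086 without pair 3. Hes5 was at 0.038 and Nfix at -0.035 without pair 4, and Rax at 0.015 and Nfix at -0.0062 without pair 5. The block changed the call of Nfe2l2, Jag1, Jag2, Dner, Hes6, Gfap, Aqp4 and Abca8a, and of no factor. The number of fragments is not given, so the spread between 4 libraries a group sets the precision.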

Other observations

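Of 3 measured genes that lie on the opposite strand of a factor, 2 went in a single direction within all 4 pairs, as 36.2% of all genes did. Raxos1, antisense to Rax, was at 6.84, 8.54, 5.39 and 6.26 FPKM in WT 1, 3, 4 and 5 and at 6.33, 6.72, 3.66 and 4.602 FPKM in cKO (-0.33 log2, limma adjusted p = 0.532, and 0.0848 with the replicate block). The RNA 2810468N07Rik, antisense to Sox8, was at 6.98, 6.89, 8.45 and 6.44 FPKM in WT and 9.62, 8.74, 10.6 and 7.05 FPKM in cKO (0.30 log2, limma adjusted p = 0.478, and 0.0777 with the block). Neither passed the threshold. The other, E130114P18Rik, a protein-coding gene opposite Nfia, went both ways within the pairs and averaged 73.1 ± 12.3 FPKM in WT and 73.3 ± 14.8 FPKM in cKO (-0.01 log2, limma adjusted p = 0.990). The strand setting of the counting is not given in the sources used here, so fragments of Rax, Sox8 or Nfia cannot be told apart from those of these genes where they overlap.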
